A study of Mus musculus with 6 samples.

Results

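Of 24421 gene rows measured in mouse colon, 10 carried the symbol of a chosen enzyme or carrier of glucose uptake, glycolysis and lactate export. These were Slc2a1, Hk1, Hk2, Pfkfb3, Pfkp, Aldoa, Eno1, Eno3, Ldha and Slc16a3, and each was found by its symbol in 1 row. RNA had been sequenced from the colon of C57BL/6 mice labelled as 7 weeks of age, in 2 groups of 3 samples. The first had chronic colitis brought on by dextran sulfate sodium (DSS), a chemical irritant that damages the colonic lining, and the second was control colon. The dose and schedule of DSS, and the stretch and layers of colon sampled, were not given in the labels. The series asks, in its design text, whether the histone mark H3K27ac has a part in inflammation of the gut, and only RNA was analysed here.

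Glycolysis splits glucose into pyruvate in the cytosol. Glucose enters through carriers such as Slc2a1, is trapped by hexokinases, is committed by phosphofructokinase and is then cut and rearranged by aldolase and enolase. Lactate dehydrogenase turns pyruvate into lactate, which leaves the cell with a proton through monocarboxylate carriers such as Slc16a3. Colonocytes draw much of their energy from butyrate, whereas activated white blood cells depend strongly on glycolysis.

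Among the 10 genes, the enolase gene Eno3 fell and the lactate carrier gene Slc16a3 rose in DSS colon. Eno3 averaged 22.8 ± 28.2 FPKM in DSS colon and 293 ± 9.15 FPKM in control colon (SD, n = 3 each), and Slc16a3 averaged 12.8 ± 2.71 FPKM in DSS colon and 6.04 ± 0.860 FPKM in control colon. FPKM is a fragment count divided by transcript length and by the mapped total, so that levels of genes of different length can be set side by side. The other 8 genes did not pass the test, which was limma on log2(FPKM + 1) with Benjamini-Hochberg adjustment over all 12348 genes tested and a threshold of 0.05.

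The promoter sequences of both genes that passed are shown first, as a description that had no part in the test. The promoter windows run from 250 bases before to 50 after the RefSeq start of the gene (GRCm38.p6), on the plus strand. The Eno3 window is chr11:70656926-70657225 and the Slc16a3 window is chr11:120948817-120949116. Capitals mark ACGTG or GCGTG on either strand, the core letters of the hypoxia response element that hypoxia-inducible factors read, because genes of this pathway are known targets of these factors.
Eno3: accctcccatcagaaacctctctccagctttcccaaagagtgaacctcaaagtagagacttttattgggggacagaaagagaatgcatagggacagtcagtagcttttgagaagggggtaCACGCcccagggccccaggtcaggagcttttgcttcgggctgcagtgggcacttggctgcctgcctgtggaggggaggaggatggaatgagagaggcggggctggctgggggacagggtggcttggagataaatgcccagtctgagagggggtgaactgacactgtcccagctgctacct
Slc16a3: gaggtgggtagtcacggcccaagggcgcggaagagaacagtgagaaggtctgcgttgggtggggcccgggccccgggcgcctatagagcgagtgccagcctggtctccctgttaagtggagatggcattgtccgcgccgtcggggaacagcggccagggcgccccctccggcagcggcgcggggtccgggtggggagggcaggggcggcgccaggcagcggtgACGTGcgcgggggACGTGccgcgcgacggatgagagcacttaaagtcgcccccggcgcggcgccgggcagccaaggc
The Eno3 window held 1 such core, starting at position -130 from the gene start. The Slc16a3 window held 2, at -27 and -14. RefSeq gave 17 windows for the 10 genes, all of which matched by symbol, and 15 windows from all 10 genes held at least 1 core. Of all 32851 promoters, 43.8% held one, and genes with several starts had several chances here. Overlapping windows of Aldoa, and of Eno1, shared the same cores, so the 15 windows do not hold separate sites. The E-box CACGTG, a palindrome that contains ACGTG and is read by Myc and related factors, was in 2 windows, 1 each of Ldha and Pfkfb3, and in 7.15% of all promoters. A match of letters is a description of the sequence and not a binding site.

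The coding sequences of the enolase genes are shown because Eno3 and Eno1 encode the same enzyme activity and reads could in principle be assigned to either gene. Capitals mark the bases at which the first 90 coding bases differ.
Eno3: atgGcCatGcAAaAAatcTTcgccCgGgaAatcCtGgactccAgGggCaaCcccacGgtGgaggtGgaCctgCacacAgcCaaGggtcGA
Eno1: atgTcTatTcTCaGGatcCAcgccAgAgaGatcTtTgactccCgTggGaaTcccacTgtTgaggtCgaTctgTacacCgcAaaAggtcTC
They differed at 28 of these 90 bases and at 304 of 1305 coding bases, an identity of 76.7%. The longest identical run over the coding sequence was 20 bases. Eno3 had no transcript elsewhere in the annotation that was at least 95% identical to it over 200 bases or more.

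The samples as a whole are described before the single genes, although Hoxb13 and Hoxd13 were singled out after their values were seen. Summed FPKM per sample ranged from 609544 to 678076, and the number of genes at 1 FPKM or above from 11849 to 12543. Summed neutrophil markers stood at 4149, 7058 and 6802 FPKM in DSS 1, 2 and 3, against 31.5, 8.40 and 15.99 FPKM in control 1, 2 and 3, and all 14 tested markers rose (limma). Summed epithelial markers stood at 7088, 5516 and 6428 FPKM in DSS colon, against 13480, 9904 and 9691 FPKM in control colon. Krt8, Krt19 and Cldn3 fell among 9 tested. Over all tested genes, 6.34% were called higher and 2.56% lower. The posterior homeobox gene Hoxb13, a marker of the distal colon, stood at 183, 0.472 and 16.1 FPKM in DSS 1, 2 and 3, against 129, 229 and 278 FPKM in the control samples. Hoxd13 stood at 14.2, 0.0586 and 0.0866 FPKM in the DSS samples, against 16.2, 36.9 and 25.5 FPKM in the control samples. DSS 2 and DSS 3 thus lay apart from the other libraries in these posterior genes, and neither gene passed the test (limma adjusted p = 0.223 for Hoxb13 and 0.104 for Hoxd13). In whole tissue, fewer cells of a type and less RNA per cell cannot be told apart. The labels do not say that the 3 samples of each group are different mice, and the p-values therefore cover the spread between libraries only, which may be technical.

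All 10 genes reached the level needed for testing, which was 1 FPKM in at least 3 samples. Slc16a3 was the 1 gene called higher, where 6.34% of all tested genes were called higher, and Eno3 was the 1 gene called lower, where 2.56% were called lower. The DSS and control samples did not overlap for 5 of the genes. Aldoa, Eno1, Eno3 and Ldha lay lower in DSS colon without overlap, as did 9.51% of all tested genes, and Slc16a3 lay higher without overlap, as did 25.6%. The log2 fold change was negative for 9 of the 10, against 36.3% of all tested genes, and its median was -0.38 over the 10 and 0.13 over all tested genes. The 10 genes were chosen with earlier results of these data known, so this comparison describes them and cannot show a shift of the pathway. The count of 9 was the same under total, upper-quartile and median-of-ratios scaling of the samples. The median over all tested genes was 0.0904, 0.0184 and -0.00245 under these scalings. The 36.3% therefore belongs to the values as deposited. For Pfkp the sign depends on the log scale, since its mean FPKM was 38.1 in DSS colon and 37.2 in control colon, and the means of Pfkfb3 were nearly equal. The count was 7 without DSS 2, 8 without control 1 and 8 without DSS 2 and DSS 3 together.

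**Figure D1:**
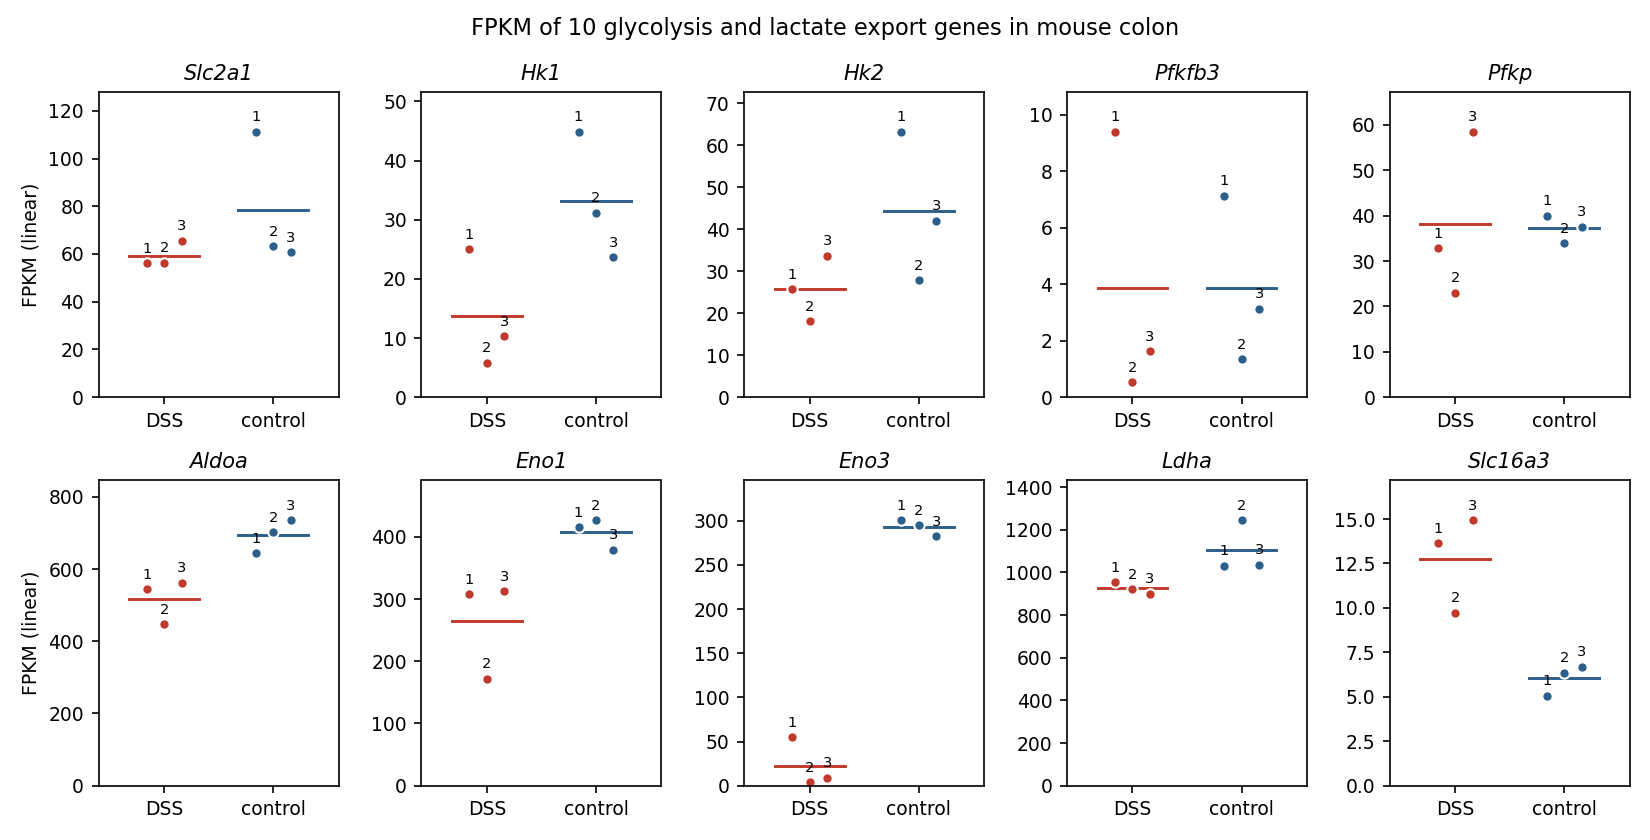
FPKM (linear axis from 0) of each of the 10 genes in the 3 DSS samples (left, red) and the 3 control samples (right, blue); numbers are replicate numbers and horizontal lines are group means. The 3 DSS samples lie below the 3 control samples for Aldoa, Eno1, Eno3 and Ldha and above them for Slc16a3, and the groups overlap for the other 5 genes.

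Slc2a1 (chr4:119108711-119137983, plus strand, GRCm38) encodes GLUT1, a glucose carrier found in most cells. Its level was 56.0, 56.4 and 65.6 FPKM in DSS 1, 2 and 3, against 111, 63.2 and 60.8 FPKM in control 1, 2 and 3. The groups overlapped, and control 1 lay above every other sample. The log2 fold change was -0.34 ± 0.24 (SE, limma adjusted p = 0.391). Among the carriers Slc2a1, Slc2a3, Slc2a4 and Slc2a6, Slc2a1 made up 84.9%, 83.4% and 79.0% of the summed FPKM in the DSS samples, against 93.6%, 87.6% and 89.1% in the control samples.

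Of 10 tested hexose carriers and their relatives, 2 rose and 0 fell, where 6.34% of all tested genes were called higher and 2.56% lower. At an unadjusted limma p under 0.05, 4 lay above and 1 below control (20.3% and 8.0% of all tested genes). The median log2 fold change of the 10 was 0.2. Slc2a6, which encodes GLUT6, a glucose carrier of white blood cells and spleen, had 2.76, 2.73 and 3.79 FPKM in DSS colon, against 0.947, 0.783 and 1.14 FPKM in control colon (a log2 fold change of 1.06 ± 0.18 SE, limma adjusted p = 0.0152). Slc5a9, a sodium-coupled sugar carrier, had 5.06, 3.83 and 4.87 FPKM in DSS colon, against 1.67, 0.932 and 2.24 FPKM in control colon (1.12 ± 0.23 SE, adjusted p = 0.0285). Neither gene's groups overlapped. Slc2a3, which encodes GLUT3, the high-affinity carrier of neurons and white blood cells, had 2.61, 1.52 and 2.11 FPKM in DSS colon, against 1.04, 0.804 and 0.532 FPKM in control colon, and missed the threshold (adjusted p = 0.0574). The log2 ratio of Slc2a1 to Slc2a3 within a sample averaged 4.3 ± 0.28 in DSS colon and 5.42 ± 0.32 in control colon, with a pseudocount of 1. The groups did not overlap and differed by -1.12 (two-sided exact permutation test, p = 0.1, which is the smallest that 3 against 3 samples can give, and 0.233 adjusted over 7 ratios). The calls of Slc2a6 and Slc5a9 were lost without DSS 3 or without any one of the control samples, with adjusted p up to 0.0829 for Slc2a6 and 0.1 for Slc5a9, and that of Slc5a9 also with no filter on low values (0.0517) and without DSS 2 and DSS 3 together. The neutrophil markers given above were also higher in DSS colon than in control colon. So were summed T cell markers, at 26.9, 41.3 and 18.3 FPKM in DSS colon, against 7.52, 5.53 and 10.1 FPKM in control colon, with Cd3d and Cd3g called higher among 4 tested. The part of these cells in the carrier results was not tested.

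Hexokinases phosphorylate glucose and so hold it in the cell. Hk1 (chr10:62268855-62379908, minus strand) encodes the form found in most tissues, and its level was 25.0, 5.85 and 10.3 FPKM in DSS 1, 2 and 3, against 44.9, 31.2 and 23.6 FPKM in the control samples. DSS 1 lay above control 3, while DSS 2 and DSS 3 lay below every control sample. The log2 fold change was -1.39 ± 0.48 (SE, limma adjusted p = 0.118). Without DSS 1 it was -1.91 and passed (adjusted p = 0.0109, and 0.0109 to 0.64 over all alternatives), and without DSS 2 and DSS 3 it was -0.35 (adjusted p = 0.64). The antisense gene Hk1os, which overlaps Hk1, stood between 0.933 and 1.69 FPKM in the DSS samples and between 0.287 and 1.37 FPKM in the control samples. Hk2 (chr6:82725025-82774454, minus strand), the inducible form of muscle, fat and activated cells, had 25.8, 18.1 and 33.7 FPKM in DSS colon, against 63.2, 27.8 and 42.1 FPKM in control colon. DSS 3 lay above control 2, so the groups overlapped (log2 fold change -0.72 ± 0.33 SE, limma adjusted p = 0.204).

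Hkdc1, a hexokinase gene that lies next to Hk1 on the same strand (chr10:62383137-62422491), varied widely among the DSS samples. It had 0.638, 17.9 and 10.4 FPKM in DSS 1, 2 and 3, against 0.370, 0.153 and 0.436 FPKM in the control samples. Every DSS sample lay above every control sample, but DSS 1 stayed under 1 FPKM, so that Hkdc1 was below the level needed for testing. It made up 1.20%, 41.9% and 18.6% of the hexokinase FPKM in the DSS samples and at most 0.655% in a control sample. Hk1 made up 46.8%, 13.7% and 18.4% in the DSS samples, against 41.2%, 52.3% and 35.4% in the control samples. The samples with little Hk1 and much Hkdc1 were DSS 2 and DSS 3, which were also those low in Hoxb13 and Hoxd13, and the part of these genes in the result was not tested. Hk3, the hexokinase of myeloid cells, had 1.53, 0.824 and 1.31 FPKM in DSS colon, against 0.336, 0.306 and 0.188 FPKM in control colon and was likewise too low for testing.

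**Figure D2:**
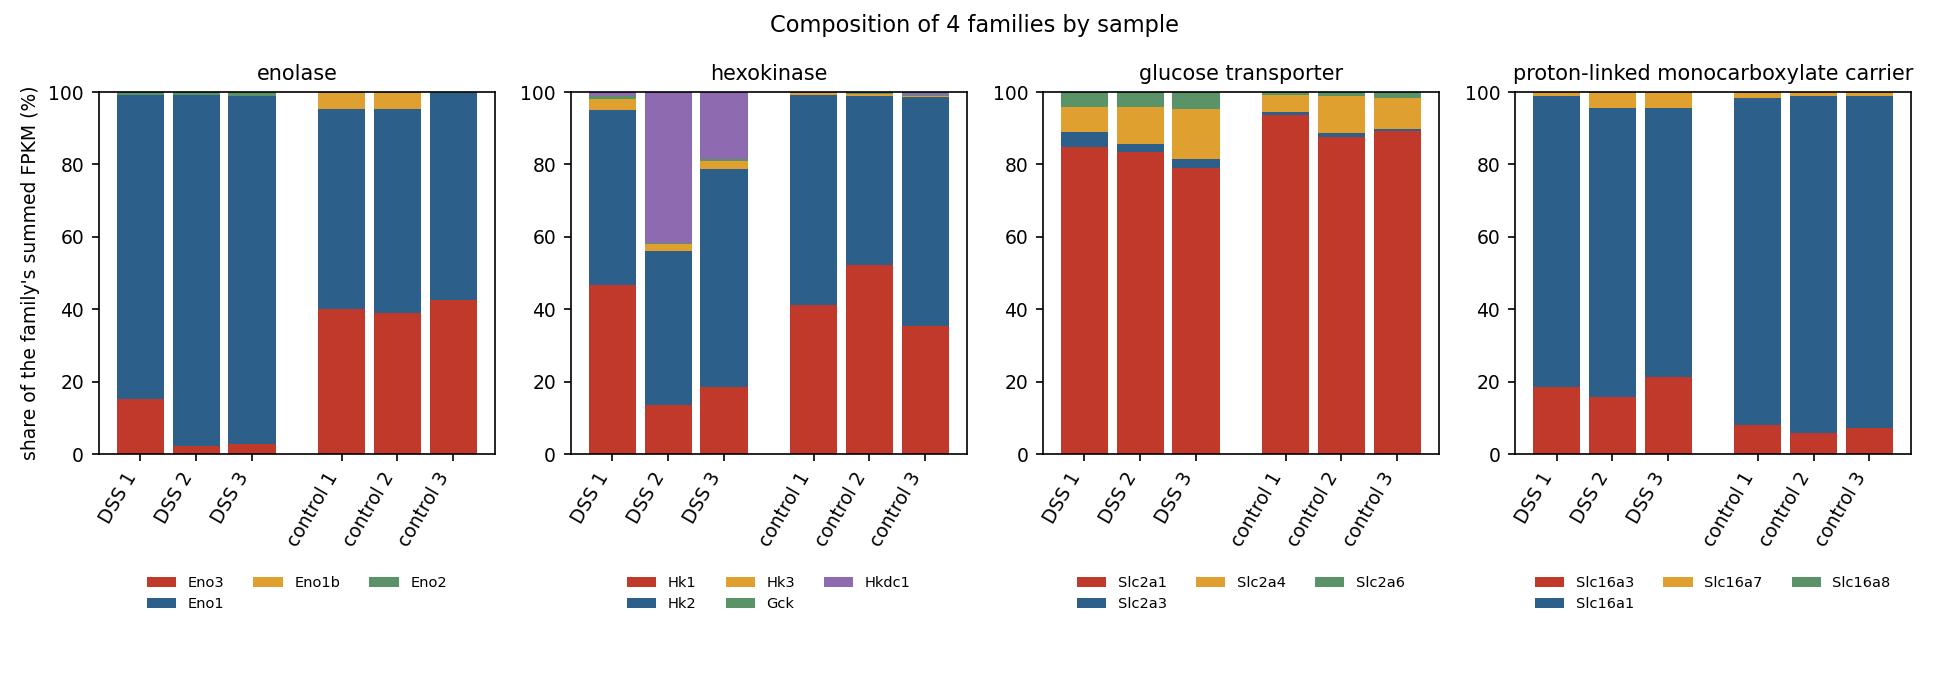
Share (%) of a family's summed FPKM held by each gene, in DSS 1 to 3 (left bars) and control 1 to 3 (right bars), for enolases, hexokinases, glucose carriers and proton-linked monocarboxylate carriers. Eno3 holds 15.1%, 2.29% and 2.80% of enolase FPKM in the DSS samples, against 40.0%, 39.0% and 42.6% in the control samples, and Hkdc1 is large in DSS 2 and DSS 3 and small in the other 4 samples.

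At the committed step, Pfkp (chr13:6579768-6648777, minus strand) encodes the platelet form of phosphofructokinase, which adds the second phosphate to the sugar. Its level was 32.8, 23.0 and 58.5 FPKM in the DSS samples, against 40.0, 34.0 and 37.6 FPKM in the control samples. DSS 3 was the highest and DSS 2 the lowest of all 6 samples, and the control samples lay between DSS 1 and DSS 3. The log2 fold change was -0.07 ± 0.31 (SE, limma adjusted p = 0.913). Pitrm1, which overlaps Pfkp on the other strand, stood between 7.59 and 9.83 FPKM in the DSS samples and between 7.34 and 8.52 FPKM in the control samples. Pfkp made up 53.5%, 38.4% and 57.1% of phosphofructokinase FPKM in DSS colon, against 54.2%, 41.3% and 45.5% in control colon.

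Pfkfb3 (chr2:11471433-11554077, minus strand) encodes an enzyme that makes fructose 2,6-bisphosphate, the strongest activator of phosphofructokinase. It was the lowest of the 10 genes by mean level in both groups, at 9.40, 0.538 and 1.63 FPKM in the DSS samples, against 7.13, 1.35 and 3.13 FPKM in the control samples. The sample numbered 1 was the highest in each group, and the groups overlapped. The log2 fold change was -0.3 ± 0.76 (SE, limma adjusted p = 0.832), and it was 0.29 without DSS 2, 0.16 without control 1 and 1.28 without DSS 2 and DSS 3. Of the 4 tested genes that set the level of fructose 2,6-bisphosphate, none passed the test, and none had an unadjusted limma p under 0.05.

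Aldoa (chr7:126795234-126800751, minus strand) encodes the aldolase of muscle and most tissues, which cuts the sugar into 2 triose phosphates. Its level was 545, 447 and 562 FPKM in the DSS samples, against 644, 702 and 735 FPKM in the control samples. Every DSS sample lay below every control sample, by a log2 fold change of -0.43 ± 0.15 (SE, limma adjusted p = 0.11). Aldoa passed under upper-quartile (-0.56, adjusted p = 0.0412) and median-of-ratios scaling (-0.59, adjusted p = 0.0362, and 0.0362 to 0.36 over all alternatives). The median log2 difference of all tested genes was 0.0184 and -0.00245 under these scalings and 0.134 with the values as deposited. Aldoa has 1 near-identical copy in the annotation (95.9% over 245 bases), which has no row. A second annotated gene with the symbol Aldoa lies at chr7:126800790-126809108.

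Enolase makes phosphoenolpyruvate, and 2 of the 10 genes encode it. Eno3 (chr11:70657202-70662513, plus strand) encodes the beta form, best known from skeletal muscle, and its level was 55.2, 4.06 and 9.09 FPKM in DSS 1, 2 and 3, against 301, 295 and 283 FPKM in control 1, 2 and 3. The control samples lay close together, and every DSS sample lay far below them, with DSS 1 the nearest. The mean in DSS colon was 7.78% of that in control colon, and the log2 fold change was -4.37 ± 0.83 (SE, limma adjusted p = 0.0287). Leaving out a sample moved this value to between -5.36 without DSS 1 and -3.63 without DSS 2. The call was lost without DSS 3 (adjusted p = 0.0954), control 1 (0.09), control 2 (0.0944) or control 3 (0.113), and adjusted p was 0.000127 to 0.113 over all alternatives. With DSS 1 as the only DSS sample the log2 fold change was -2.39 (adjusted p = 0.0035), on the assumption that a lone sample varies as the controls do.

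The skeletal muscle markers are given because muscle is the best known site of Eno3. Their summed level was 10.9, 12.7 and 25.2 FPKM in the DSS samples, against 25.5, 27.3 and 17.0 FPKM in the control samples. Of 16 markers, Myh1, Myh4, Pvalb and Mb were listed at 0 in every sample. The level needed for testing was reached by 3, and none of those passed. At an unadjusted limma p under 0.05, 1 was higher, as were 20.3% of all tested genes. In control colon, Eno3 alone stood above the summed level of this list in every sample. Levels of different genes do not show which cells the Eno3 RNA came from. Eno3 also moved with the posterior Hox genes among the DSS samples, being highest in DSS 1. Of 11 surface colonocyte markers, 6 fell and Guca2b rose, where 2.56% of all tested genes were called lower and 6.34% higher. Summed, the 11 markers stood at 23650, 20070 and 12840 FPKM in DSS colon, against 28560, 24740 and 27510 FPKM in control colon. Most of this sum was Lypd8, which did not pass (limma adjusted p = 0.416), and without it the other 10 summed to 2694, 3767 and 3710 FPKM in DSS colon, against 8966, 6813 and 7580 FPKM in control colon. Of the 6 that fell, 4 were highest in DSS 1 among the DSS samples, as Eno3 was, and 2 were not. Smooth muscle markers summed to 1905, 1315 and 3635 FPKM in DSS colon, against 4835, 4875 and 3875 FPKM in control colon. All 11 had a negative log2 fold change (median -1.01), and Tpm2 was the 1 that fell. Of 6 tested adipocyte markers, Adipoq, Cfd and Retn fell while Cidec and Fabp4 rose. The part of these cells in the Eno3 result was not tested. Nor was that of the stretch of colon sampled, which the labels do not give.

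Eno1 (chr4:150236721-150248879, plus strand) encodes the alpha form of most tissues. Its level was 308, 172 and 312 FPKM in the DSS samples, against 415, 427 and 379 FPKM in the control samples. The groups did not overlap, DSS 2 was the lowest sample, and the log2 fold change was -0.67 ± 0.24 (SE, limma adjusted p = 0.122). Eno1 has 4 near-identical copies in the annotation, which can take or hide its reads. One of them, Eno1b, has its own row and matches at 99.5% over 1736 bases. Eno1b stood at 0.0940, 0.0527 and 0.345 FPKM in DSS 1, 2 and 3, against 32.6, 32.2 and 0.0377 FPKM in control 1, 2 and 3, so it was high in a pair of control samples and near 0 elsewhere. With Eno1b added to Eno1 the adjusted p was 0.104 (0.0556 to 0.295 over all alternatives).

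The enolase FPKM summed to 366, 178 and 325 in the DSS samples, against 751, 756 and 664 in the control samples. The log2 ratio of Eno3 to Eno1 within a sample was -2.46, -5.1 and -4.96 in the DSS samples, against -0.46, -0.53 and -0.42 in the control samples. The groups did not overlap and differed by -3.7 (exact permutation test, two-sided p = 0.1, adjusted 0.233). The difference was -4.55 to -3.24 when 1 sample was left out.

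**Figure D3:**
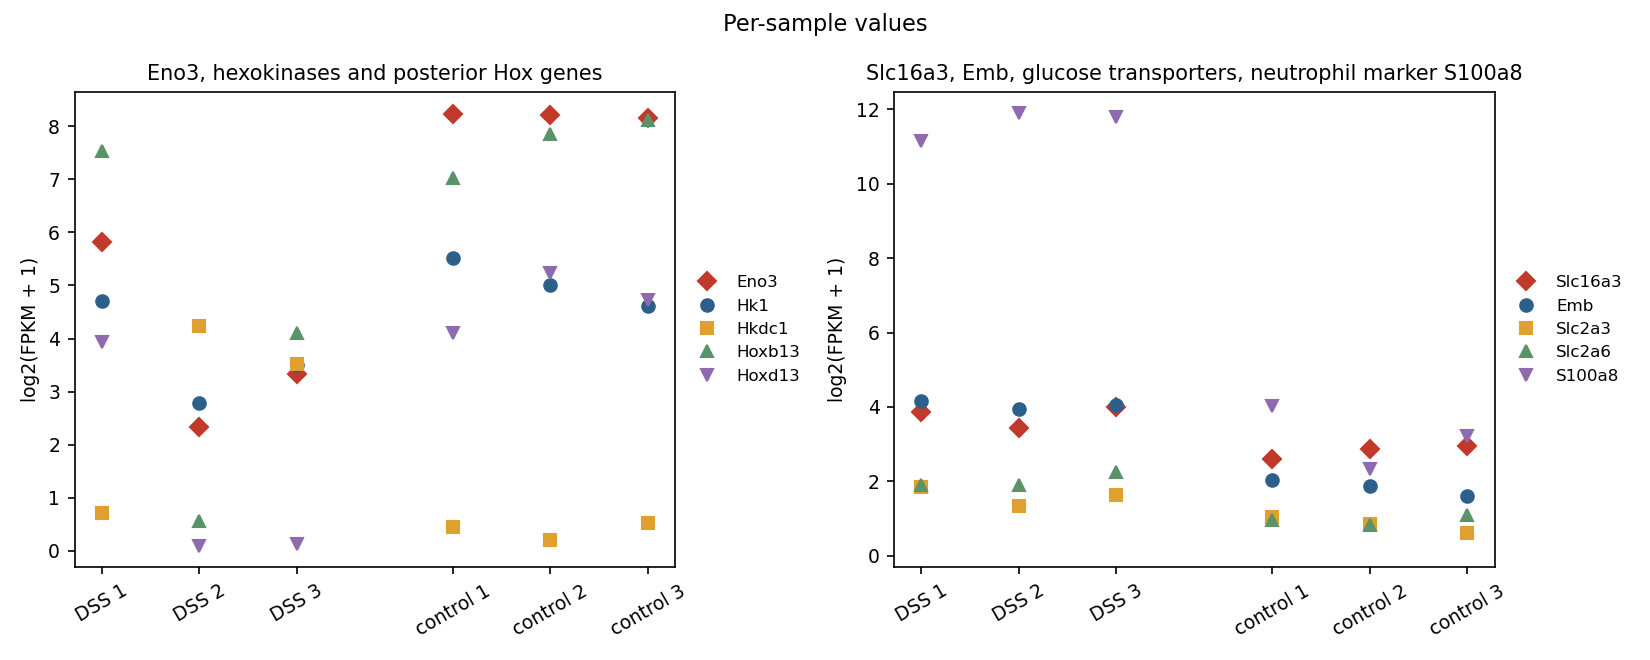
log2(FPKM + 1) in DSS 1 to 3 (left) and control 1 to 3 (right) for Eno3, Hk1, Hkdc1, Hoxb13 and Hoxd13 in the left panel and for Slc16a3, Emb, Slc2a3, Slc2a6 and the neutrophil marker S100a8 in the right panel; each point is 1 sample. Eno3, Hk1, Hoxb13 and Hoxd13 are higher in DSS 1 than in DSS 2 and DSS 3, and Hkdc1 is lower, whereas Slc16a3 and Emb lie higher in all 3 DSS samples than in any control sample.

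The genes whose profile over the 6 samples lay nearest to that of Eno3 were Slc15a1, Sycn and Clca1. Likeness was the root mean square difference between profiles of log2(FPKM + 1), each centred on its own mean, and it was 0.336, 0.554 and 0.603 for these genes. Slc15a1, a peptide carrier, had 12.8, 1.21 and 1.85 FPKM in DSS colon, against 64.4, 70.4 and 65.3 FPKM in control colon. As with Eno3, DSS 1 was the highest DSS sample and the controls lay close together. The genes nearest to Slc16a3 were Lacc1 (0.0868), Scd1 (0.0887) and Cd200 (0.103).

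Ldha (chr7:46841475-46855627, plus strand) encodes the lactate dehydrogenase subunit that favours lactate formation, and it was the most abundant of the 10 genes in both groups. Its level was 954, 922 and 899.9 FPKM in the DSS samples, against 1032, 1244 and 1036 FPKM in the control samples. The groups did not overlap and the DSS samples lay close together, but the difference was small (log2 fold change -0.25 ± 0.14 SE, limma adjusted p = 0.27). Ldha has 5 near-identical copies in the annotation, and none has a row of its own. Ldha made up between 97.9% and 98.6% of the FPKM of Ldha and its relatives in the DSS samples and between 98.3% and 98.7% in the control samples, so that Ldhb stayed a minor form in both.

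Slc16a3 (chr11:120948480-120960868, plus strand) encodes MCT4, the low-affinity carrier through which glycolytic cells export lactate. Its level was 13.7, 9.73 and 14.9 FPKM in DSS 1, 2 and 3, against 5.06, 6.35 and 6.70 FPKM in control 1, 2 and 3. Every DSS sample lay above every control sample. The mean was 2.12-fold higher in DSS colon, and the log2 fold change was 0.96 ± 0.2 (SE, limma adjusted p = 0.0305). The value stayed between 0.84 and 1.13 when 1 sample was left out, and it was 1.07 with DSS 1 as the only DSS sample (adjusted p = 0.0635). The call was lost without DSS 3 (0.11), control 1 (0.0922), control 2 (0.103) or control 3 (0.0902) and with no filter on low values (0.054), and adjusted p was 0.02 to 0.11 over all alternatives.

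Slc16a1, which encodes MCT1, the main butyrate and lactate carrier of colonocytes, had a log2 fold change below 0 (-0.54). It had 59.3, 48.8 and 52.0 FPKM in DSS colon, against 55.8, 100.1 and 84.1 FPKM in control colon, with groups that overlapped (limma adjusted p = 0.166). Slc16a3 made up 18.5%, 15.9% and 21.3% of the FPKM of Slc16a1, Slc16a3, Slc16a7 and Slc16a8 in the DSS samples, against 8.17%, 5.90% and 7.28% in the control samples. The log2 ratio of Slc16a3 to Slc16a1 averaged -2.0 ± 0.24 in DSS colon and -3.49 ± 0.28 in control colon, without overlap, and differed by 1.5 (exact permutation test, two-sided p = 0.1, adjusted 0.233). It was 1.35 to 1.63 when 1 sample was left out.

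Of 8 tested genes of monocarboxylate transport, Slc16a3 and Emb rose and 0 fell, where 6.34% of all tested genes were called higher and 2.56% lower. At an unadjusted limma p under 0.05, 3 lay above and 2 below control (20.3% and 8.0% of all tested genes). Emb, which encodes embigin, a membrane partner of monocarboxylate carriers, had 16.8, 14.5 and 15.5 FPKM in the DSS samples, against 3.10, 2.64 and 2.03 FPKM in the control samples. It rose by a log2 fold change of 2.22 ± 0.17 (SE, limma adjusted p = 0.000687) and kept its call under each of 16 alternatives. Bsg, which encodes basigin, the partner that carries MCT1 and MCT4 to the membrane, had 528, 465 and 525 FPKM in DSS colon, against 463, 634 and 619 FPKM in control colon (limma adjusted p = 0.552). The neutrophil markers were higher in DSS colon than in control colon, as Slc16a3 and Emb were. The neutrophil sum, mostly S100a8 and S100a9, was highest in DSS 2, where Slc16a3 and Emb were lowest among the DSS samples. Single markers differed in their order within DSS colon. Retnlg was highest in DSS 2 (186, 224 and 221 FPKM in DSS 1, 2 and 3). Mmp8 was lowest there (24.4, 16.9 and 25.5 FPKM). Summed T cell markers were likewise higher in DSS colon, though Cd2 had a log2 fold change of -0.16 and Lck was not called. Summed macrophage and monocyte markers stood at 866, 665 and 675 FPKM in DSS colon, against 610, 532 and 497 FPKM in control colon. Most of this sum was Lyz2, which did not pass (limma adjusted p = 0.114). Itgam was the 1 of 12 that rose, and 3 of the 12 had a negative log2 fold change (Cd68, Csf1r and Cd163). The part of these cells in the Slc16a3 and Emb results was not tested.

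In DSS colon the order by mean FPKM was Ldha, Aldoa, Eno1, Slc2a1, Pfkp, Hk2, Eno3, Hk1, Slc16a3 and Pfkfb3. In control colon it was Ldha, Aldoa, Eno1, Eno3, Slc2a1, Hk2, Pfkp, Hk1, Slc16a3 and Pfkfb3. The first 3 were separated from their neighbours in both groups, with no overlap between samples. From Slc2a1 to Slc16a3 in DSS colon, and from Slc2a1 to Hk1 in control colon, each gene overlapped the next. Eno3 stood clear of both neighbours in control colon and overlapped both in DSS colon.

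The rest of the pathway was read from lists of related genes. Of 30 glycolytic enzyme genes 20 reached the level needed for testing, and Eno3 was the 1 that fell, while 0 rose. Calls over all tested genes were 2.56% lower and 6.34% higher. At an unadjusted limma p under 0.05, 6 of the 20 were lower and 0 higher (8.0% and 20.3% of all tested genes), and their median log2 fold change was -0.17, against 0.13 over all tested genes. Pkm, the pyruvate kinase of most tissues, had 550, 394 and 525 FPKM in DSS colon, against 642, 692 and 722 FPKM in control colon, without overlap, and did not pass (-0.5, adjusted p = 0.103). Tpi1, which interconverts the triose phosphates, had 569 ± 11.5 FPKM in DSS colon and 564.5 ± 17.8 FPKM in control colon (SD, n = 3 each, limma adjusted p = 0.96). Pkm and Tpi1 each have a near-identical copy without a row. Gapdh was listed at 0, 21.4 and 36.1 FPKM in the DSS samples, against 2.00, 0.117 and 0.145 FPKM in the control samples. A gene that every cell uses should not be near 0, and Gapdh has 93 near-identical copies in the annotation, so its values are uncertain. It was tested and is 1 of the 20. Without it, 1 of 19 fell and 0 rose, 6 were lower and 0 higher at an unadjusted limma p under 0.05, and the median log2 fold change was -0.19.

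**Figure D4:**
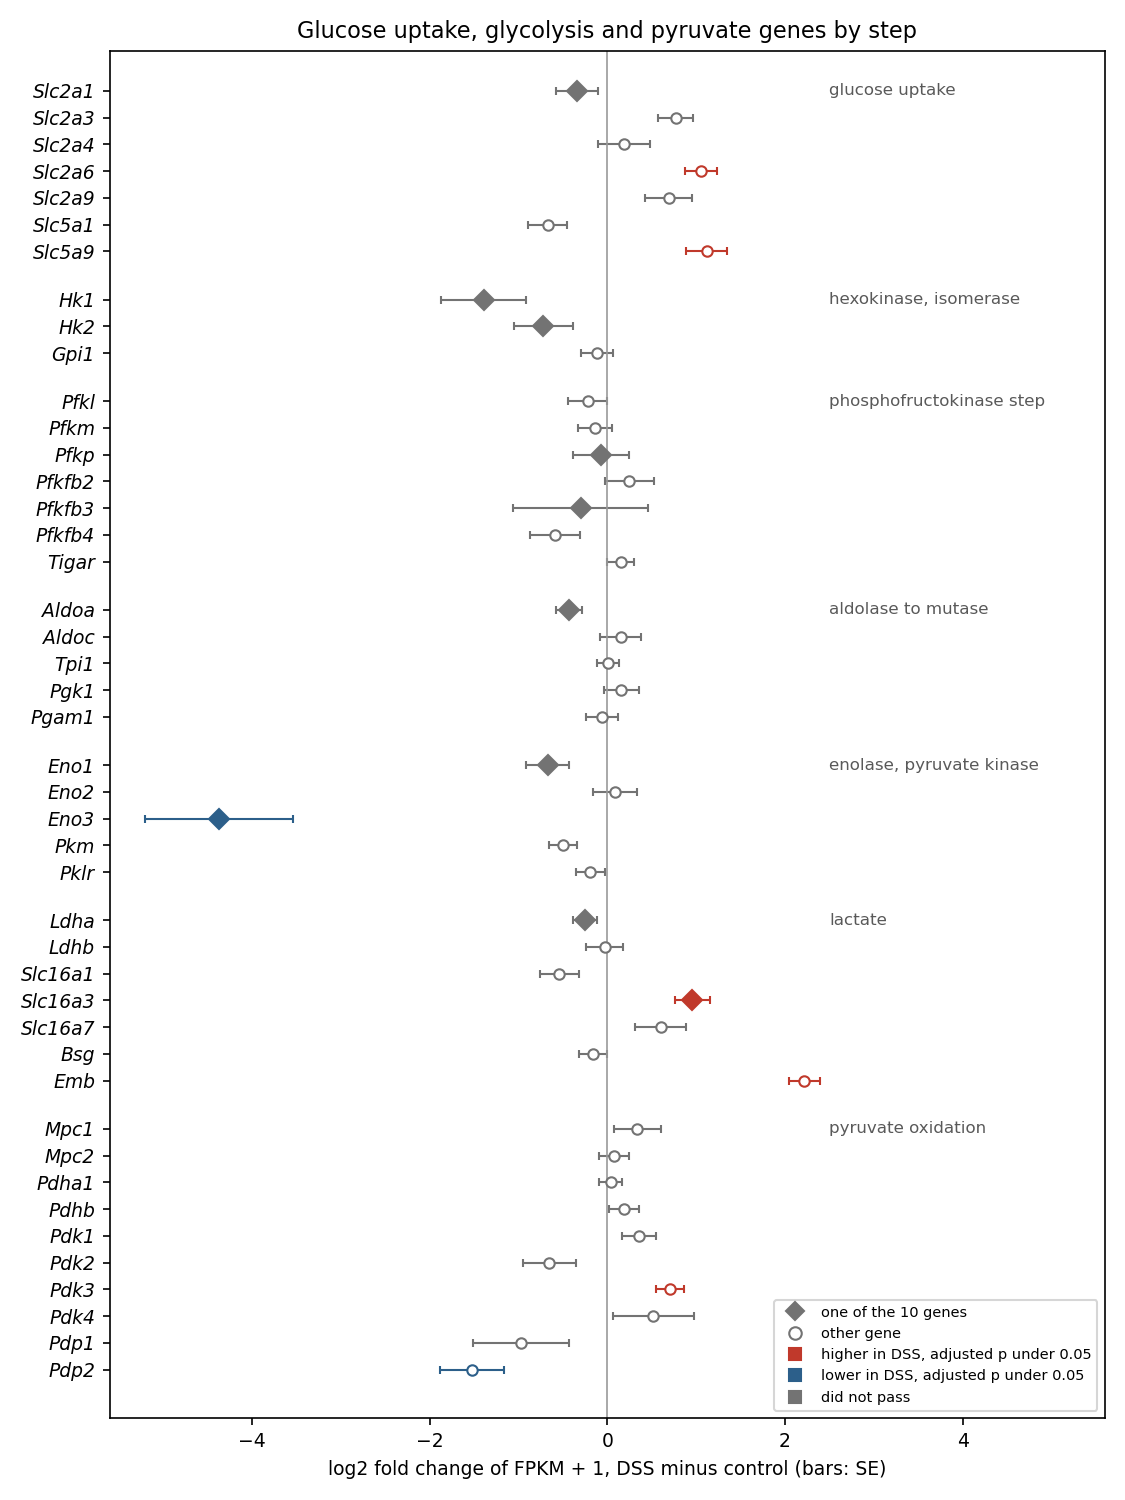
log2 fold change of FPKM + 1, DSS minus control, for selected tested genes by step, with standard errors as bars. Diamonds are the 10 genes, open circles other genes, red and blue mark adjusted p under 0.05 (limma) for higher and lower in DSS. Not every tested gene is drawn, and Gapdh (2.59) is among those left out. Eno3 lies at -4.37, Slc16a3 at 0.96 and Emb at 2.22, and most glycolytic enzymes shown lie slightly to the left of 0.

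Genes of pyruvate use and of branches from glycolysis gave at most 1 call in each direction per list. Of all tested genes, 6.34% were called higher and 2.56% lower. Of 14 tested genes of pyruvate oxidation, Pdk3, a kinase that switches off pyruvate dehydrogenase, rose, with 19.8, 18.1 and 23.4 FPKM in DSS colon, against 11.1, 12.7 and 12.5 FPKM in control colon (0.71 ± 0.16 SE, limma adjusted p = 0.0347). Pdp2, a phosphatase that switches the complex back on, fell, with 1.56, 0.442 and 1.08 FPKM in DSS colon, against 2.37, 5.86 and 6.80 FPKM in control colon (-1.52 ± 0.36 SE, adjusted p = 0.0441). The groups did not overlap for either gene. Their calls were lost in 8 and 9 of 16 alternatives, with adjusted p up to 0.154 for Pdk3 and 0.275 for Pdp2, and the median log2 fold change of the 14 was 0.12.

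Pygl, the liver form of glycogen phosphorylase, which frees glucose phosphate from glycogen, rose among 11 tested glycogen genes. It had 8.05, 7.08 and 9.59 FPKM in DSS colon, against 2.5, 3.54 and 2.85 FPKM in control colon (1.22 ± 0.19 SE, limma adjusted p = 0.0102), and lost the call without control 3 (0.0564, and 0.00852 to 0.0564 over all alternatives). H6pd, the hexose-6-phosphate dehydrogenase of the endoplasmic reticulum, rose among 8 tested pentose phosphate genes, at 9.56, 7.53 and 9.91 FPKM in DSS colon, against 4.74, 4.04 and 5.24 FPKM in control colon (0.82 ± 0.17 SE, adjusted p = 0.0318, lost in 8 of 16 alternatives, up to 0.122). Sord, which turns sorbitol into fructose and has a near-identical copy, fell among 4 tested genes of fructose and polyol use. It had 27.3, 26.3 and 26.8 FPKM in DSS colon, against 44.1, 77.6 and 67.5 FPKM in control colon (-1.17 ± 0.21 SE, adjusted p = 0.0192, lost in 4 of 16, up to 0.125). None of 6 tested gluconeogenesis genes passed. At an unadjusted limma p under 0.05, 2 were lower and 0 higher (8.0% and 20.3% of all tested genes). Calls over all tested genes were 6.34% higher and 2.56% lower.

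None of 15 tested regulators of glycolytic genes passed, and their median log2 fold change was -0.08. At an unadjusted limma p under 0.05, 2 were lower and 0 higher (8.0% and 20.3% of all tested genes). Hif1a, the oxygen-regulated subunit of the hypoxia-inducible factor whose core letters are marked in the promoters above, had 82.5, 23.7 and 55.1 FPKM in DSS colon, against 148, 47.5 and 52.6 FPKM in control colon (limma adjusted p = 0.551). DSS 1 and control 1 were the highest of their groups, as they were for Pfkfb3. Txnip, which restrains glucose uptake, had 372, 481 and 320 FPKM in DSS colon, against 645, 535 and 662 FPKM in control colon, without overlap, and missed the threshold (-0.66 ± 0.19 SE, adjusted p = 0.0673). RNA levels of Hif1a say nothing of its protein, which is set mainly by oxygen-dependent breakdown.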

How the data were processed

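RNA was measured in 3 DSS and 3 control samples of mouse colon, grouped by their titles. The deposited values are FPKM per gene, per the file headers. The labels' protocols name poly(A) isolation and non-directional second-strand synthesis, so reads of overlapping genes cannot be told apart by strand. Such partners with a row were Fam57b (Aldoa), Hk1os (Hk1), Pitrm1 (Pfkp) and Mir1957a (Slc2a1). TopHat2 2.1.1 and mm10 are named in the submitters' processing notes, but which program computed FPKM, and on which annotation, is not given in the sources used here. Low values showed no steps of whole reads, down to 1e-06 FPKM, and read depth therefore remains unknown.

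The 12348 genes at 1 FPKM or more in 3 or more samples were compared between groups as log2(FPKM + 1) by limma 3.58.1 (R 4.3.3), with trended, robust moderation and Benjamini-Hochberg adjustment of two-sided p-values. The fit was tested on simulated data. This scale understates changes of low genes. Within-sample log2 ratios of 7 pairs were compared by exact permutation (scipy 1.17.1, Python 3.11.15). One of these ratios is not reported here. Copies were sought with BLAST+ 2.17.0 in GENCODE vM21 transcripts (at least 95% identity over 200 bases), positions are GENCODE vM21 on GRCm38, promoters are RefSeq, and figures used matplotlib 3.10.9. The genes and lists were chosen with earlier results of these data known. Named were all 10 genes, the called genes of each pathway list (4 by smallest p where more than 6), ratio partners, called cell type markers where 4 or fewer, the 3 nearest profiles of the largest rise and fall, and copies with a row. Some markers that met this rule are not described. Hkdc1, Hk3, Pkm, Tpi1, Gapdh, Bsg, Hif1a, Txnip, Guca2b, Lypd8, Adipoq, Cfd, Retn, Cidec, Fabp4, S100a8, S100a9, Retnlg, Mmp8, Hoxb13 and Hoxd13 were singled out after their values were seen. Alternatives covered scaling, pseudocount, filter, moderation, the replicate number as a block, samples left out and copies added.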

Additional observations from a re-analysis of the deposited data

How the results depend on the processing

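Of 160 values of the 10 genes under an alternative, 143 kept their direction and their side of the threshold. The sign of Pfkfb3 turned without DSS 2 and DSS 3 together (1.28), and with 1 sample left out its log2 fold change lay between -1.09 without DSS 1 and 0.29 without DSS 2. That of Pfkp lay between -0.42 without DSS 3 and 0.23 without DSS 2. The others are given with each gene above. Called genes numbered 783 higher and 316 lower in all, with 71.2% of calls higher. They numbered 544 and 467 (53.8% higher) under upper-quartile scaling and 519 and 504 (50.7%) under median-of-ratios scaling. Leaving out 1 sample gave 191 to 972 higher and 58 to 584 lower. Leaving out DSS 2 and DSS 3 together, an alternative chosen after seeing the data, gave 317 higher and 212 lower. Of the 10 genes, 1 was called higher and 1 lower. Those called higher numbered 0 without the filter on low values and 0 without DSS 2 and DSS 3, with 1 at an unadjusted limma p under 0.05 in both, and 0 to 1 with 1 sample left out. Those called lower numbered 2 under upper-quartile and 2 under median-of-ratios scaling, where Aldoa joined Eno3, and 0 to 2 with 1 sample left out. A fit without 1 sample holds 5 samples, so a call lost there need not point to that sample.

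With 1 sample left out, the ratio of Pfkp to Pfkl (0.16 with all samples) lay between -0.05 without DSS 3 and 0.49, and was -0.0015 without control 2. The ratio of Hk2 to Hk1 lay between 0.38 and 1.17 and that of Ldha to Ldhb between -0.32 and -0.08. The cause of these shifts was not tested.

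With the replicate number as a replicate block, 640 genes were higher and 255 lower, and Eno3 (adjusted p = 0.0408) and Slc16a3 (0.0491) kept their calls. Pdk3 (0.0599) and Pdp2 (0.0852) lost theirs. Deviations of same-numbered DSS and control samples correlated at 0.0818, 0.129 and 0.00308 (numbers 1, 2 and 3), so the numbers were not taken as pairs. DSS 1 and DSS 2 correlated best with their own number, while DSS 3 correlated best with control 1 (0.0341). Depth is unknown, so its limit on low genes such as Pfkfb3 cannot be stated.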
